A study of Mus musculus with 3 samples.

Results

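The 29 genes described here encode receptors for glutamate and GABA, the main excitatory and inhibitory transmitters of the brain. They were taken by symbol from a list of glutamate receptor and GABA-A receptor genes, and all 29 were found among the 21887 protein-coding genes of the annotation. The list holds 4 AMPA receptor genes (Gria1 to Gria4), 5 kainate receptor genes (Grik1 to Grik5), 6 NMDA receptor genes (Grin1, Grin2a to Grin2d and Grin3a), 6 metabotropic glutamate receptor genes (Grm2, Grm3, Grm4, Grm5, Grm7 and Grm8) and 8 GABA-A receptor genes (Gabra2 to Gabra5, Gabrb1, Gabrb2, Gabrg1 and Gabrg3). The list leaves out other receptor genes of these families, and the members were chosen with earlier results of these data known.

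AMPA, kainate and NMDA receptors are cation channels opened by glutamate, each assembled from several subunits. Metabotropic glutamate receptors act through G proteins, and GABA-A receptors are chloride channels built from alpha, beta and gamma subunits. Oligodendrocyte progenitors, from which the myelin-forming oligodendrocytes arise, are known to receive synapses from neurons and to carry AMPA and GABA-A receptors, which are lost or rearranged as the cells mature.

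Open chromatin was measured by ATAC-seq, in which a transposase cuts and tags accessible DNA. Cells of C57BL/6 mice aged postnatal day 4 to 7 were purified from cortex by panning on antibodies to GalC and then to O4, and 50000 cells were taken per library. The control DO library and the control D1 library are wild type, and the Seh1cKO D1 library carries a conditional knockout of Seh1, a nuclear pore protein. The labels do not say which promoter or cell type drives the deletion. All cells had been expanded in medium with PDGF-AA, CNTF, bFGF and NT3. Per the labels, differentiation means 60 nM triiodothyronine (T3), a thyroid hormone, with PDGF-AA, bFGF and NT3 withdrawn, and the D1 libraries were read as 1 day of it. The letters DO were read as the undifferentiated start, because the header of that peak table names its input for day 0. Undifferentiated Seh1cKO cells were not analysed here, so the knockout is compared at D1 alone. Each group is 1 library, so differences have no replicate check and none was tested.

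The libraries held 10845533 to 23403600 fragments and 46113 to 118441 peaks, and the Seh1cKO library had 59.4% of the fragments of control D1. Its smaller list cannot be told apart from genotype by counts of peaks alone. As a check of the labelled cell type, 7 of 8 progenitor marker genes had a peak at a gene end in every library, and Cspg4 had none. Their summed pileup at the summits was 20.5 to 28.7 fragments per 1000000 fragments of the library (FPM). Of 10 neuron marker genes, 8, 8 and 5 had such a peak in control DO, control D1 and Seh1cKO, with sums of 9.77 to 12.6. Slc17a7 and Slc17a6 had none in control DO or Seh1cKO, Rbfox3 and Stmn2 none in control D1 or Seh1cKO, and Slc32a1 none in Seh1cKO. Of 6 astrocyte marker genes 3 had one in each library, with sums of 2.44 to 4.43 and none at Aqp4, Slc4a4 or Gjb6. Microglia marker genes gave 3, 2 and 1 of 6 with sums of 1.84 to 4.38, and endothelial marker genes 3, 3 and 2 of 6 with sums of 2.58 to 3.40. Of 8 genes of mature oligodendrocytes 4, 6 and 3 had one, with sums of 3.69 to 8.05. An open gene end is not a measure of expression, and the part of other cell types in the results was not tested.

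The RefSeq table of GRCm38.p6, whose main chromosomes share coordinates with mm10, gave 28 promoters for 21 of the 29 genes. Shown are the 250 bases before the start of Gria4, an AMPA subunit, and of Grin1, the obligatory NMDA subunit. Their promoters had a peak in all 3 libraries. Grm8, a group III metabotropic receptor, and Gabrg1, a GABA-A gamma subunit, had a promoter peak in both control libraries and none in Seh1cKO. Gabra3, a GABA-A alpha subunit, and Grm2, a group II metabotropic receptor, had none in any library, and were added after their values were seen. Each is written 5′ to 3′ toward the start on the minus strand. Gria4 lies at chr9:4796235-4796484, Grin1 at chr2:25319188-25319437, Grm8 at chr6:28135147-28135396, Gabrg1 at chr5:70842618-70842867, Gabra3 at chrX:72656920-72657169 and Grm2 at chr9:106656110-106656359. Capitals mark matches, on either strand, to any of 10 short motifs searched.
Gria4: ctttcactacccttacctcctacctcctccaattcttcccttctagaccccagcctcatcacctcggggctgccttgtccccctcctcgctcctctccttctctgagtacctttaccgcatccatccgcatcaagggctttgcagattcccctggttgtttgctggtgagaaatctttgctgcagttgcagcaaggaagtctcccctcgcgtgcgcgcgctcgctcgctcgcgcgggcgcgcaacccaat
Grin1: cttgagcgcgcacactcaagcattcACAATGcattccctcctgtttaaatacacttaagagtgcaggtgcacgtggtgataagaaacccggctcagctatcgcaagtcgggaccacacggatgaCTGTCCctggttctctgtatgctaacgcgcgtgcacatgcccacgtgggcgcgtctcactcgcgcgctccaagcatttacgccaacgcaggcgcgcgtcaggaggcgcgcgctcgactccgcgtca
Grm8: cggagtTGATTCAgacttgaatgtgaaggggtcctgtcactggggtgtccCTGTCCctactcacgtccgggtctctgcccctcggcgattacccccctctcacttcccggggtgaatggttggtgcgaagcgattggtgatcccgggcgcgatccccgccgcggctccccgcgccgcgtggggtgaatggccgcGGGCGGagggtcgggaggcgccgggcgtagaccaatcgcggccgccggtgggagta
Gabrg1: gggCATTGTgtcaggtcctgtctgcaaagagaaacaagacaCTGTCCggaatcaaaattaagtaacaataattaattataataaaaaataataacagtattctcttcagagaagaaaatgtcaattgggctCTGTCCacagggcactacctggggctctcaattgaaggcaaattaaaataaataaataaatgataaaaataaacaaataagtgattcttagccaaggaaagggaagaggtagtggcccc
Gabra3: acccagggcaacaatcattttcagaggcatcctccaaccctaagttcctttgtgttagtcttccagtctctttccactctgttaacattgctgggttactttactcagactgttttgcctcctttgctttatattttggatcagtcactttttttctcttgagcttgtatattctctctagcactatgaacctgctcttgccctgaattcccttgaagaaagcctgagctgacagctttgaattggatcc
Grm2: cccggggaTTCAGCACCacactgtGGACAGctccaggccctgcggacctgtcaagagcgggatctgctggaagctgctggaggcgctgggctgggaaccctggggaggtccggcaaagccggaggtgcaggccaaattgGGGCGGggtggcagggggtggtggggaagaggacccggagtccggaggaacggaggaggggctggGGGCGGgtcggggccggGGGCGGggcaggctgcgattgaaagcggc

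The 6 stretches differed most in base composition. Over 250 bases Grm8 held 29 CpG dinucleotides, Grin1 27, and Gria4 and Grm2 16 each, while Gabrg1 held 1 and Gabra3 none. Their GC content was 68.4% for Grm8, 58.8% for Grin1 and Gria4, 71.2% for Grm2, 35.6% for Gabrg1 and 42.4% for Gabra3. Grm2 held the motif TTCAGCACC, a part of the element bound by the repressor REST, and the remaining part GGACAG downstream of it, with other bases between them. Motif counts here cover 250 bases before to 50 after each start, so they can include matches outside the printed stretches. TTCAGCACC was found in no other member and in 0.371% of all 32851 promoters. GGACAG alone was found in 10 of the 28 member promoters and in 22.2% of all promoters. GGGCGG, the letters bound by Sp and KLF factors, was found in 14 of the 28, against 35.7% of all promoters. CAGCTG, an E-box, was found in none of the 28 and in 16.3% of all promoters, and TGACGTCA, the cyclic AMP response element, in none and in 1.79%. CAGATG, another E-box, was in 1 of the 28 and 17.2% of all promoters. ACAATG, read by Sox factors, was in 3 and 12.6%. TTGGCA, part of the NFI site, was in 1 and 14.1%. TGANTCA, the AP-1 letters, was in 1 and 7.81%, and AGGTCA, the hexamer of nuclear receptors, was in 2 and 16.3%. A match describes the letters and is no evidence of binding.

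A gene was said to have a gene-end peak when a peak overlapped the 1000 bp on either side of its first or last annotated base, since the annotation table gives no strand. All 29 receptor genes had one in control DO, 25 in control D1 and 21 in Seh1cKO, against 62.4%, 63.2% and 56.2% of all genes. Among genes over 100000 bp, which 21 of the 29 are, the shares were 79.6%, 80.0% and 72.9%. Nothing is read from the complete count in control DO, because the list was drawn up with such peaks known. Of 12 other receptor genes of these families, 10, 10 and 6 had a gene-end peak. The same 21 receptor genes that had one in Seh1cKO had one in all 3 libraries, against 54.1% of all genes.

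By class, 1 of 4 AMPA receptor genes had a gene-end peak in Seh1cKO. Gria2 was missing only because its promoter peak falls outside the window. At Gria3 a Seh1cKO peak overlapped the control D1 gene-end peak but lay outside the window. The kainate receptor genes had 4 of 5, the NMDA genes 4 of 6, the metabotropic genes 5 of 6 and the GABA-A genes 7 of 8. Grin2a, Grin2c, Grm2 and Gabra3 had a gene-end peak in control DO and not in control D1, and no receptor gene the reverse. Over all genes these shares were 4.72% and 5.52%, and nothing is read from the receptor counts beside them, since a list whose members all have a control DO peak fixes the second at 0 and can raise the first. Gria1, Gria2, Gria3 and Grik5 had one in control D1 and not in Seh1cKO, 4 of 29 against 8.17%. At Gria2 and Gria3 this came from where the window falls. The reverse was found at no receptor gene and at 1.12% of all genes. The plot of gene-end pileup shows these genes by class.

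**Figure D1:**
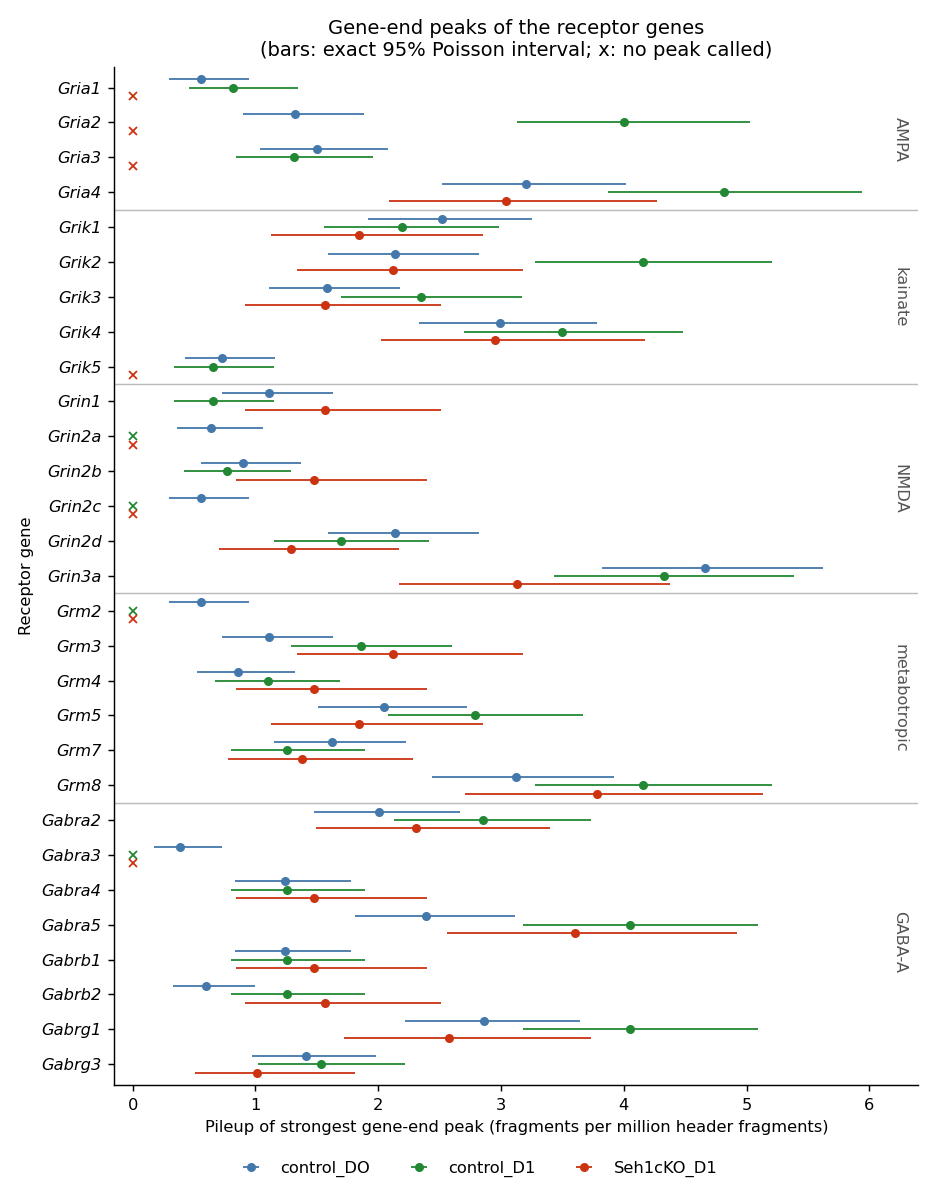
Pileup of each receptor gene's strongest gene-end peak, in FPM, in control DO, control D1 and Seh1cKO D1, with exact 95% Poisson intervals and crosses where no peak was called. The intervals of the libraries overlap for most genes, and the highest values are those of Gria4 in control D1, at 4.82, and of Grin3a in control DO, at 4.66.

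The values that follow are pileups of the strongest gene-end peak in FPM, in the order control DO, control D1 and Seh1cKO D1. Pileup is the number of fragments over a peak's summit. A missing peak means no call, and the lowest pileup called was 9, 8 and 6 fragments in the 3 libraries. The intervals are exact Poisson intervals at 95% and cover counting error only.

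Among AMPA receptor genes, Gria4 had the highest values: 3.20 (2.52 to 4.02), 4.82 (3.87 to 5.94) and 3.04 (2.09 to 4.27). Its peak covered the promoter in all 3 libraries, and control D1 stood above both others. Gria1 had 0.555 and 0.821 and no call in Seh1cKO, from 13 and 15 fragments. Gria3, on the X chromosome, had 1.5 and 1.31 and no gene-end call in Seh1cKO, where a peak outside the window overlapped its control D1 peak. Both genes were called at their low-coordinate end in both controls. Gria2, the subunit that limits calcium entry, had 1.32 and 4.00 and no gene-end call in Seh1cKO, but this comes from where the window falls. Its RefSeq start lies inside the annotated gene span, and the peak over that promoter had 3.16, 4.00 and 3.96 FPM, from 74, 73 and 43 fragments. The Gria2 promoter was therefore called in every library, with log2 ratios of 0.34 (-0.15 to 0.82) for control D1 over control DO and -0.01 (-0.59 to 0.55) for Seh1cKO over control D1.

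The kainate receptor genes were called in all 3 libraries except Grik5. Grik4, one of the high-affinity subunits, had the highest level in control DO and Seh1cKO: 2.99, 3.50 and 2.95. Grik1 had 2.52, 2.19 and 1.84, and Grik3 1.58, 2.35 and 1.57. Grik2 had 2.14 (1.59 to 2.82), 4.16 (3.28 to 5.21) and 2.12 (1.34 to 3.18), so control D1 lay above both other intervals at the annotated gene end. At the Grik2 start given by the promoter table a separate peak had 3.25, 3.83 and 2.86, with a ratio of Seh1cKO to control D1 of -0.42 (-1.08 to 0.21) on the log2 scale. Grik5 had 0.726 and 0.657, from 17 and 12 fragments at the end opposite to its start, and no call in Seh1cKO. No peak covered the Grik5 promoter in any library.

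Among NMDA receptor genes, Grin3a, a subunit that lowers calcium passage, had the highest values: 4.66, 4.33 and 3.13. Grin1 had 1.11 (0.726 to 1.63), 0.657 (0.340 to 1.15) and 1.57 (0.913 to 2.51), from 26, 12 and 17 fragments. Control D1 was the lowest of the 3, and the intervals overlapped. Grin2b had 0.897, 0.767 and 1.48. Its strongest peak in control D1 overlapped neither of the others, so both of its ratios compare different sites. Grin2d had 2.14, 1.70 and 1.29, at the end opposite to its start. An annotated end of the gene Grwd1 lies under that peak, which cannot be assigned to Grin2d alone. The tabled Grin2d promoter had no peak in any library. Beside that promoter, inside the gene, a peak at chr7:45865928-45866456 had 1.67, 2.35 and 1.57. Grin2a had 0.641 and Grin2c 0.555 in control DO, from 15 and 13 fragments, and neither had a call at D1.

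Grm8 led the metabotropic genes with 3.12, 4.16 and 3.78. Grm5, the group I receptor of the list, had 2.05, 2.79 and 1.84. Grm3 had 1.11, 1.86 and 2.12, Grm4 0.855, 1.10 and 1.48, and Grm7 1.62, 1.26 and 1.38. Grm3 and Grm4 were lowest in control DO, with overlapping intervals. Grm2 had 0.555 in control DO, from 13 fragments, and no call at D1.

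Of the GABA-A genes, Gabrg1 had 2.86, 4.05 and 2.58. The gene-end peak of Gabra5 cannot be assigned to that gene alone, so its values are not given. Over the Gabra5 start of the promoter table a peak had 0.726, 1.37 and 1.11. Gabra2 had 2.01, 2.85 and 2.31. Gabra4 and Gabrb1 lie head to head and share their strongest gene-end peak, with 1.24, 1.26 and 1.48. Their gene-end ratios are therefore a single observation listed under both names. In control DO a separate, weaker peak of 16 fragments, or 0.684, overlapped the Gabra4 promoter. Measured from that peak, the log2 ratio for control D1 over control DO was 0.88 (-0.10 to 1.90). Gabrb2 had 0.598, 1.26 and 1.57, lowest in control DO, and Gabrg3 had 1.41, 1.53 and 1.01. Gabra3, on the X chromosome, had 0.385 in control DO, from 9 fragments, the lowest pileup called in that library.

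Between control DO and control D1, the 25 genes called in both had a median log2 ratio of 0.36, from -0.76 at Grin1 to 1.59 at Gria2. All 12633 genes called in both had a median of 0.47, so a ratio near that is what a typical gene showed, and changes are given relative to it. Relative to all genes the receptor median was -0.11. With the peak of Gabra4 and Gabrb1 counted once, an alternative chosen after seeing the data, the 24 genes had a median of 0.39 and the counts past 1.5-fold were 2 and 7 as below. More than 1.5-fold higher were Gria2, through its window, and Gabrb2, at 1.07 (0.05 to 2.15), 2 of 25 against 7.03% of all genes. More than 1.5-fold lower were Gria3, Grik1, Grik5, Grin1, Grin2b, Grin2d and Grm7, 7 of 25 against 9.27%. The list was drawn up with gene-end peaks known, and all members have one in control DO, which can lower these ratios. Nothing is therefore read from this count or from the relative median. The Grin2b value compares peaks that do not overlap, and the Grin2d value comes from the peak over an end of Grwd1. With the deposited fold enrichment in place of pileup only Grin1 of these 7 passed 1.5-fold, and with a 2000 bp window Grik5 and Gria2 changed sign. Of these 7, none had an interval that excluded a log2 ratio of 0, and those of Grik1, Grin1, Grin2d and Grm7 excluded 0.47. The Grik1 ratio was -0.20 (-0.82 to 0.40), the Grin1 ratio -0.76 (-1.88 to 0.28), that of Grin2d -0.33 (-1.03 to 0.34) and that of Grm7 -0.37 (-1.18 to 0.42).

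Between control D1 and Seh1cKO, the 21 genes called in both had a median log2 ratio of -0.25, against 0.00 for all 12052 genes. Grin1, at 1.25 (0.10 to 2.45), and Grin2b, at 0.94 (-0.18 to 2.09), were more than 1.5-fold higher in Seh1cKO, 2 of 21 against 8.92% of all genes. For Grin2b the peaks compared do not overlap. Gria4, Grik2, Grik3, Grm5, Gabrg1 and Gabrg3 were more than 1.5-fold lower, 6 of 21 against 8.75%. With fold enrichment only Gabrg3 of these 6 passed 1.5-fold, and Grik2 did not pass with a 2000 bp window, while Grin1 and Grin2b passed under both. Counting the shared peak once left the median at -0.25 over 20 genes. The ratio was -0.66 (-1.29 to -0.07) at Gria4, -0.97 (-1.71 to -0.28) at Grik2 and -0.65 (-1.33 to -0.01) at Gabrg1, intervals that excluded 0 for counting error. It was -0.59 (-1.49 to 0.25) at Grik3, -0.60 (-1.42 to 0.17) at Grm5 and -0.60 (-1.75 to 0.45) at Gabrg3. Both comparisons use the control D1 library, so a high or low value there moves both ratios in opposite directions. Relative to all genes, the log2 ratio for control D1 over control DO was -1.23 at Grin1 and 0.49 at Grik2. It was 0.12 at Gria4 and 0.03 at Gabrg1, near the median of all genes.

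**Figure D2:**
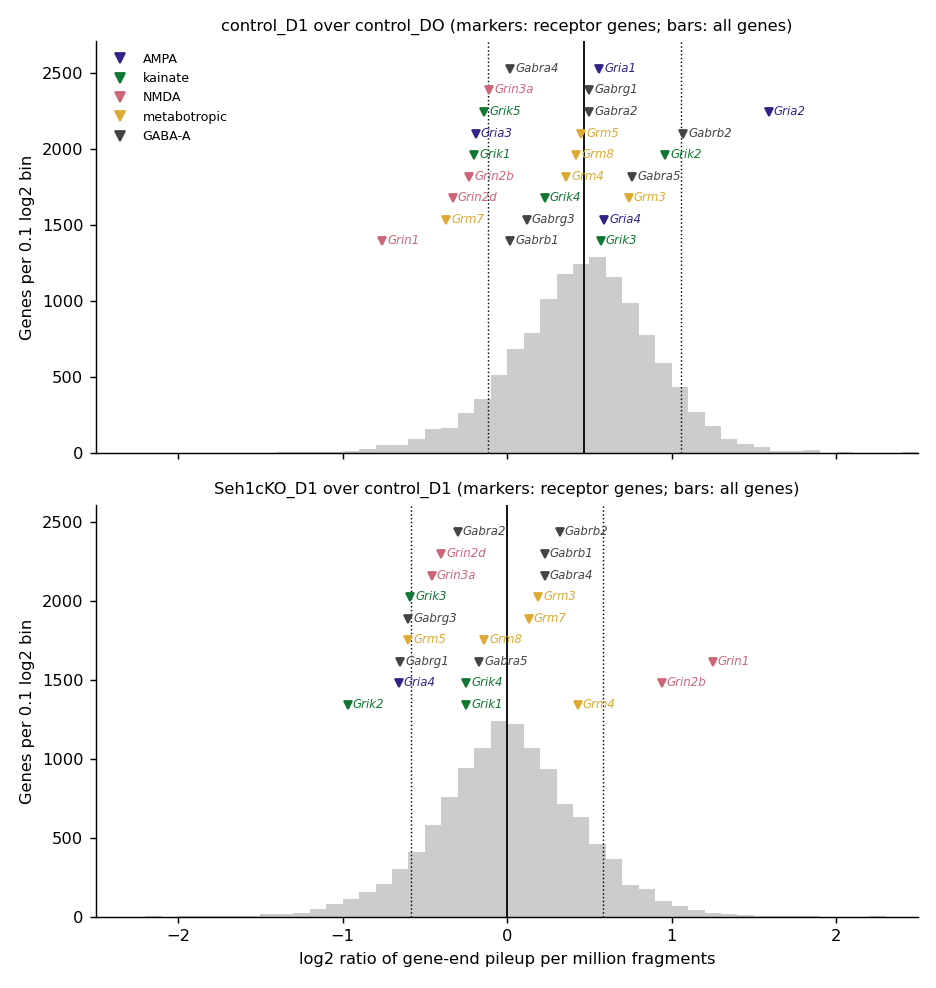
Log2 ratio of gene-end pileup in FPM for the receptor genes (markers, coloured by class, with no meaning in their height) over the distribution of all genes (grey bars, genes per bin), for control D1 over control DO and for Seh1cKO over control D1. The solid line is the median of all genes and the dotted lines lie 1.5-fold to either side. Grin1 lies at -0.76 in the upper panel and at 1.25 in the lower.

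Promoter windows, from 250 bases before to 50 after each start of the RefSeq table, separate a gene's own start from its other end. A peak covered at least 1 window in 16 of the 21 tabled genes in control DO, 16 in control D1 and 14 in Seh1cKO, against 56.4%, 57.2% and 54.1% of all 17492 genes. Grik5, Grin2c, Grin2d, Grm2 and Gabra3 had none in any library, so their gene-end calls in control DO lay outside the tabled promoter. Grm8 and Gabrg1 had none in Seh1cKO. Their Seh1cKO peaks, with 41 and 28 fragments, lay further upstream than the windows, inside the span of the broader control peaks. The 15 member promoters with a peak in all 3 libraries had a median GC content of 63.7% and a median observed to expected CpG ratio of 0.66. Over all genes such promoters had 62.7% and 0.80. The 7 member promoters with a peak in no library had 56.0% and 0.28, against 47.3% and 0.21 over all genes. Gria1, Gria3, Grik1, Grin2a, Grin2b, Grin3a, Grm4 and Grm5 were not matched.

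Beyond the gene ends, the gene bodies with 10000 bp on either side, 9400459 bp in all, held 357 peaks in control DO, 433 in control D1 and 130 in Seh1cKO. That is 3.80 (3.41 to 4.21), 4.61 (4.18 to 5.06) and 1.38 (1.16 to 1.64) per 100 kb. Cut to equal length by score (46113 peaks each), the lists gave 1.52, 1.55 and 1.38. The median receptor locus had 3.82, 4.89 and 1.76, the median of all genes 5.96, 6.48 and 2.96, and that of genes over 100000 bp 4.95, 5.48 and 2.12. The kainate genes were the densest class, with 5.24, 5.66 and 1.99 per 100 kb. The GABA-A genes were the sparsest in each library, with 2.90, 4.06 and 0.982. AMPA genes had 3.65, 4.93 and 1.36, NMDA genes 3.99, 4.46 and 1.33, and metabotropic genes 3.50, 4.26 and 1.32.

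Single loci ranged widely. Grm7, the longest gene of the list, held 36, 43 and 6 peaks, and Grik4 held 29, 33 and 10. Grm8 had 24, 32 and 10, Gabrg3 21, 31 and 6, and Grik3 26, 23 and 10. Grin2a, which encodes the NMDA subunit of mature synapses, held 11 and 10 peaks in the controls and none in Seh1cKO. Gabra3 held 3 weak peaks in control DO, none in control D1 and 1 in Seh1cKO. Gria1 held 13, 14 and 2.

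Peaks of the receptor loci were on the whole weaker than those of other genes. A −log10 q of at least 10, called strong here, was reached by 21.8%, 23.6% and 23.8% of their peaks, against 29.3%, 32.1% and 38.7% of peaks in all gene loci. Of the 433 control D1 peaks, 149 or 34.4% (29.9 to 39.1) overlapped a control DO peak, against 45.0% of peaks in all gene loci and 40.0% in the loci of genes over 100000 bp. An overlap with a Seh1cKO peak was found for 96 or 22.2% (18.3 to 26.4), against 35.7% in all gene loci and 30.1% in those of long genes. These and the following intervals are exact Clopper-Pearson intervals at 95%.

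Peak strength and distance from gene ends were then held apart. Of those whose −log10 q reached 10 or more, 84.3% (75.8 to 90.8) were also in control DO and 67.6% (57.7 to 76.6) in Seh1cKO, against 90.1% and 82.1% in all gene loci and 86.3% and 75.7% in long loci. Among such strong peaks outside the end windows of any gene, the Seh1cKO share was 58.2% (46.6 to 69.2) of 79, against 72.4% in all loci and 70.9% in long ones. For weaker peaks outside those windows it was 7.42% (4.76 to 10.9) of 310, against 11.4% and 11.5%. By decile of −log10 q, the receptor share in Seh1cKO was below that of all gene loci in 10 of 10 deciles, and the share in control DO in 7 of 10. The deciles were not split by gene length or distance from gene ends, and long loci had lower shares than all loci. The plot of shares by decile shows that every single interval includes the level of all gene loci.

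**Figure D3:**
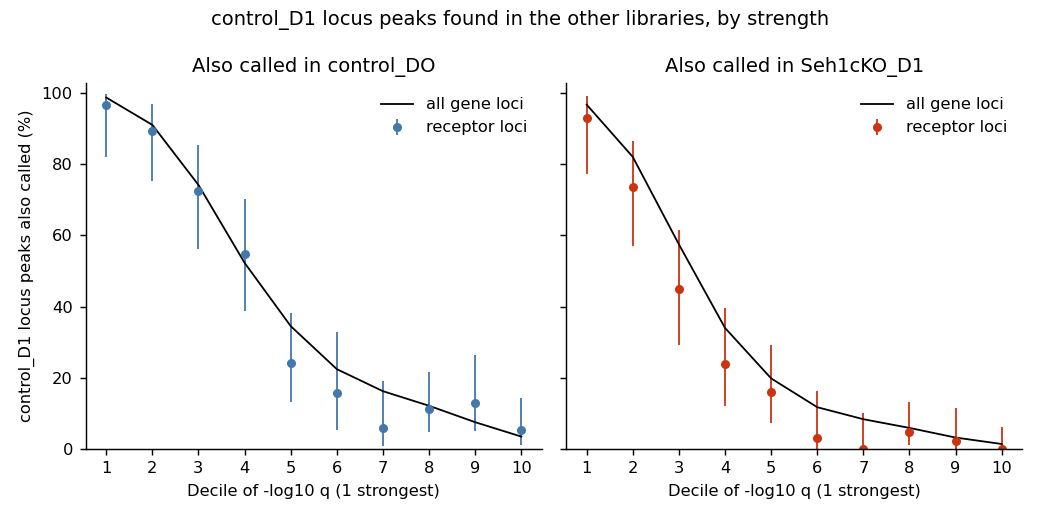
Percentage of control D1 peaks in receptor loci that overlap a peak of control DO (left) or Seh1cKO D1 (right), by decile of −log10 q with 1 the strongest, with exact 95% intervals, beside the same percentage for peaks in all gene loci (line). In Seh1cKO the receptor points lie below the line in 10 of 10 deciles, from 93.1% in the strongest to 0% in the weakest. The line covers loci of genes of every length.

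In the other direction, 41.2% of control DO peaks in receptor loci were found in control D1, against 49.8% in all gene loci. Of the 130 Seh1cKO peaks 77.7% were found in control D1, against 84.9%, and 71.5% in control DO, against 82.1%. All 31 strong Seh1cKO peaks, with a −log10 q of 10 or more, were also in both control libraries, as were 99.7% (control D1) and 99.5% (control DO) of such peaks in all gene loci. By class, the GABA-A loci shared the fewest of their control D1 peaks, 25.3% (16.7 to 35.5) with control DO and 14.3% (7.83 to 23.2) with Seh1cKO. The kainate loci shared the most, 44.4% (34.9 to 54.3) and 26.9% (18.8 to 36.2). For strong peaks the class shares with control DO lay between 82.4% and 86.7%. With Seh1cKO they took another order, 80.0% (51.9 to 95.7) for NMDA, 9 of 12 peaks (42.8% to 94.5%) for GABA-A, 69.6% (47.1 to 86.8) for metabotropic, 62.9% (44.9 to 78.5) for kainate and 58.8% (32.9 to 81.6) for AMPA loci, with overlapping intervals.

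**Figure D4:**
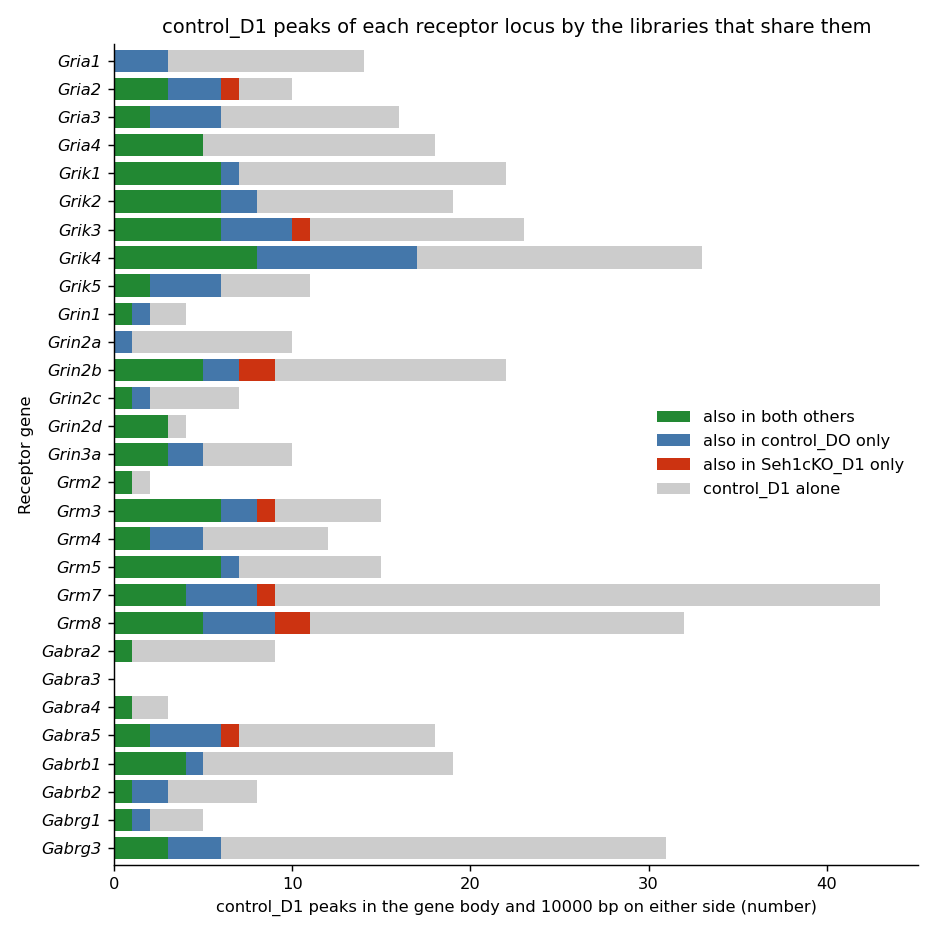
Number of control D1 peaks in each receptor locus, divided by whether they overlap peaks of both other libraries, of control DO only, of Seh1cKO D1 only or of neither. Peaks of control D1 alone are the largest part at most loci, as at Grm7 with 34 of 43, and Gabra3 has no control D1 peak.

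The 102 strong control D1 peaks fell into 67 shared by all 3 libraries, 19 shared with control DO only, 14 found in control D1 alone and 2 shared with Seh1cKO only. All 20 of them in the genes' own end windows were shared by all 3 libraries. Over all loci, 98.1% of strong control D1 peaks in gene-end windows were also in control DO and 95.8% in Seh1cKO. The 19 shared with control DO and not Seh1cKO lay at 12 genes, with 4 at Grik4 and 2 each at Gria2, Gria3, Grik3 and Grik5. The 14 in control D1 alone lay at 9 genes, with 4 at Grik1 and 3 at Grm7. The 2 shared with Seh1cKO only lay in Gria2 and Grin2b.

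Several peaks inside receptor genes were higher in control D1 than in both other libraries, on the FPM scale. The annotation table gives no exons, so a peak inside a gene is not placed further. In Gria2, chr3:80725113-80725544 had 46 fragments in control D1, or 2.52 FPM, and 8 or 0.738 in Seh1cKO, and was not called in control DO. In Grm8, chr6:27617492-27618002 had 1.28, 4.38 and 1.11 FPM. Its log2 ratios were 1.77 (1.15 to 2.43) for control D1 over control DO and -1.99 (-3.00 to -1.10) for Seh1cKO over control D1. In Gabrg3, chr7:56763790-56764019 had 0.470 in control DO and 3.07 in control D1, from 11 and 56 fragments, a log2 ratio of 2.71 (1.76 to 3.79), and was not called in Seh1cKO.

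Other such sites lay in Grin2b, Grik3 and Grin3a. The Grin2b site at chr6:135734172-135734825 had 0.769, 3.61 and 1.94, with log2 ratios of 2.23 (1.46 to 3.07) and -0.90 (-1.68 to -0.17). The Grik3 site at chr4:125544930-125545718 had 2.44, 5.80 and 2.67, with ratios of 1.25 (0.78 to 1.74) and -1.12 (-1.76 to -0.51). In Grin3a, chr4:49741251-49741771 had 1.71, 3.01 and 1.29, with ratios of 0.82 (0.20 to 1.44) and -1.22 (-2.18 to -0.36). The same order was found in Gria4, Grm3 and Gabrb1. The Gria4 site at chr9:4680360-4680827 had 1.20, 2.46 and 1.29, the Grm3 site at chr5:9623119-9623497 had 0.513, 1.81 and 0.738, and the Gabrb1 site at chr5:72130019-72130457 had 1.92, 3.18 and 1.38. Control D1 was the highest at each of these 6, which were chosen mostly through that library. Under the same choice all genes had a median of 0.50 for control D1 over control DO, within the intervals of Grin3a, of Gria4, at 1.04 (0.33 to 1.78), and of Gabrb1, at 0.72 (0.14 to 1.32). For Seh1cKO over control D1 it was -0.20, and -0.60 for genes over 100000 bp. The intervals of all 6 sites held -0.60. Those of Grin2b, of Gria4 (-1.91 to -0.04) and of Grm3 (-2.62 to -0.15) also held -0.20. The intervals of the Grm8 and Gria2 sites lay below both medians. A site before Gria3 at chrX:41392492-41392802 went the other way between the controls, with 2.22 in control DO, 1.26 in control D1, a ratio of -0.82 (-1.59 to -0.09), and no call in Seh1cKO.

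Those sites are each the strongest peak of its locus outside the gene's own end windows, taken over the 3 libraries, so the choice favours the library in which a site is high. It was control D1 for 21 of the 29 genes and for 11435 of 18578 genes overall. Nothing is therefore read from the direction alone, and the same rule over all genes is given beside it. For control D1 over control DO, 23 receptor genes called in both had a median log2 ratio of 0.72, against 0.50 for all genes and 0.56 for genes over 100000 bp. Relative to the median of all genes 7 were more than 1.5-fold higher, against 14.6% of all genes and 23.0% of long ones, and 3 lower, against 14.6% and 15.1%. For Seh1cKO over control D1, 16 receptor genes had a median of -0.92, against -0.20 for all genes and -0.60 for long genes. Of these 9 were more than 1.5-fold lower, against 20.3% of all genes and 40.0% of long ones, and none was higher, against 13.6% and 6.26%. Of 26 receptor genes whose peak was called in control D1, 10 or 38.5% had no call there in Seh1cKO, against 35.2% of all genes and 19.0% of long ones.

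The strongest peaks of 2 loci belong to neighbours by position, though both loci are kept in the medians and counts above. That of Grik5, at chr7:25076851-25077563, lies inside Zfp574 and had 6.62, 10.4 and 11.9 FPM. That of Grin2c, at chr11:115276655-115277438, lies at an end of Fdxr and had 4.53, 8.0 and 5.81. Apart from these, some strong sites had intervals that include 0 in both comparisons. A peak in Grm5 at chr7:87925706-87926561 had 3.20, 4.05 and 3.60, with log2 ratios of 0.34 (-0.14 to 0.82) and -0.17 (-0.77 to 0.41). A peak in Grik4 at chr9:42897149-42898575 had 3.72, 4.16 and 3.13, with ratios of 0.16 (-0.30 to 0.62) and -0.41 (-1.04 to 0.19). In Grik1, chr16:88173868-88174684 had 2.22, 2.96 and 2.12, with ratios of 0.41 (-0.16 to 0.99) and -0.48 (-1.25 to 0.25).

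**Figure D5:**
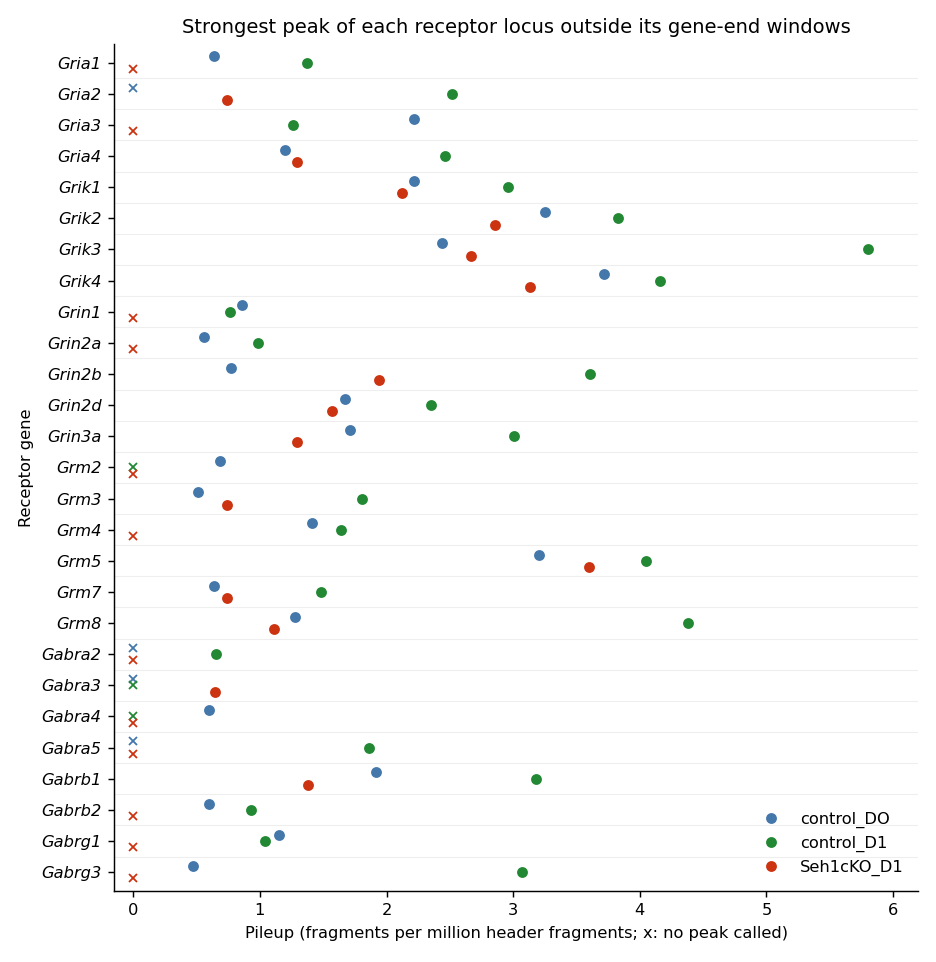
Pileup in FPM, in each library, of the strongest peak of each receptor locus outside its own gene-end windows (chosen over the 3 libraries), with crosses where no peak was called. The loci of Grik5 and Grin2c are left out because their strongest peaks lie at other genes. At most loci, among them Grm8, Gabrg3, Grin2b, Gria2 and Grik3, the control D1 point lies to the right of both other libraries.

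Of the peaks found in control D1 alone, the strongest was chr16:88258503-88258772 in Grik1, with 33 fragments and a −log10 q of 25.9. Next in that list were chr7:57417829-57418033 in Gabra5, with 34 fragments and 25, and chr6:27929765-27930197 in Grm8, with 32 fragments and 24.7. Those of control DO alone, by the scores of that list, were chr4:125485458-125485787 before Grik3 at 11, chr9:42922177-42922399 in Grik4 at 10.5 and chr7:57038121-57038340 in Gabrg3 at 9.57. The strongest of Seh1cKO alone lay in Grik1, at chr16:88244656-88244880, with 13 fragments and 6.96. Those in Grm8 at chr6:27545816-27546170 and in Gabrg3 at chr7:57293598-57293795 had 5.54 and 4.60.

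After Gria2, the strongest peaks shared by both D1 libraries and not called in control DO were chr6:135744662-135745093 in Grin2b and chr4:125629618-125629893 in Grik3. Their −log10 q in control D1 was 13.5 and 8.38, and in Seh1cKO 3.71 and 2.86. Those shared by control DO and Seh1cKO and not called in control D1 were weak, with a −log10 q in control DO of 3.94 for chr9:4615374-4615603 in Gria4 and of 2.61 for chr6:111482016-111482143 in Grm7 and chr7:57161093-57161192 in Gabrg3. Each had 7 fragments in Seh1cKO. All scores are the authors' and rank peaks within 1 list.

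Genes that work with these receptors were set beside them. Of 11 auxiliary subunit genes, which steer AMPA and kainate receptor trafficking and gating, 9 had a gene-end peak in each library, with Cacng8 and Cnih3 lacking one. Of 14 synaptic scaffold genes 11, 10 and 10 had one, and Dlg4, Gphn and Shank3 had none in any library. Of 11 genes for transport and metabolism of glutamate and GABA, 9, 10 and 8 had one. Their median log2 ratios for control D1 over control DO were 0.42, 0.55 and 0.42, and for Seh1cKO over control D1 -0.31, -0.42 and -0.18. The 12 other receptor genes had 0.47 and -0.21. Of control D1 locus peaks, 39.8% of those of auxiliary genes were also in Seh1cKO, 31.1% for scaffolds, 34.7% for transport and metabolism and 27.0% for the other receptor genes.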

How the data were processed

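Per the submitters' processing notes, reads were handled with Bowtie2, SAMtools and MACS2 in the build mm10. MACS 2.1.2_dev made 1 peak list per library from paired-end fragments, per the file headers, keeping duplicates, without a control library and at a q cutoff of 0.05. A shift of reads for the transposase cut, or removal of regions of artificial signal, is not given in the sources used. Per the file headers, the deposited values for a peak are the pileup signal at its summit, −log10 values of p-value and of q-value, and fold enrichment over local background. Duplicates can raise a pileup.

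Gene positions came from RefSeq GRCm38.p6. Pileups were divided by the fragment totals of the headers and given per 1000000 (FPM). Peaks were matched across libraries by an overlap of at least 1 bp, and log2 ratios carry exact conditional binomial intervals at 95%. Ratios were counted past 1.5-fold relative to the median of all genes. With 1 library per group no test was run, and intervals cover counting error alone, because fragments need not be independent molecules. The members, classes and partner lists were chosen with earlier results of these data known. All 29 members are accounted for. Locus peaks were named by rule: the strongest in control D1 of each class outside the gene-end windows, and the 3 strongest of each pattern of presence. The strongest peak of each locus, the promoter windows and the split by distance from gene ends were added after the data were seen. Overlap counting was tested on simulated peaks. Python 3.11.15, pandas 2.3.3, numpy 2.4.6, scipy 1.17.1 and matplotlib 3.10.9 were used.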

Additional observations from a re-analysis of the deposited data

How the results depend on the processing

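The counts of genes with a gene-end peak kept within 1.5 times their values under a −log10 q of at least 5, lists of equal length (the 46113 strongest peaks each) and windows of 500 and 2000 bp. With promoter windows in place of gene ends, an alternative chosen after seeing the data, they were 16 in control DO and 16 in control D1, over the 21 tabled genes. Peaks per 100 kb in control DO, control D1 and Seh1cKO were 1.49, 2.02 and 0.660 at a −log10 q of at least 5. At equal list length they were 1.52, 1.55 and 1.38. The share of control D1 peaks also in control DO was then 53.7% and 65.1%, and the share also in Seh1cKO 30.5% and 56.8%, in that order. The median log2 ratio for control D1 over control DO was -0.11 when libraries were scaled to shared gene-end peaks, which moves the median of all genes to 0, and 0.08 with fold enrichment. Relative to all genes, for control D1 over control DO, Gria2 changed sign to -0.13, Grik5 to 0.18 and Grik2 to -0.11 with a 2000 bp window. For Seh1cKO over control D1, Grik2 weakened to -0.54 there, and Grm3 went from 0.18 to -0.76 with a 500 bp window. With fold enrichment, 6 of 7 genes lower in control D1 (Grin1 kept) and 5 of 6 lower in Seh1cKO (Gabrg3 kept) no longer passed 1.5-fold, and Grin3a newly did at -0.59. The cause was not tested. No paired analysis was possible because each group has 1 library. For the same reason no library could be left out. Sites that are open but below the lowest pileup called are missed, which limits the Seh1cKO library most.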
